A study of Mus musculus with 8 samples.

Results

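The genes described here are 9 p53 targets that halt the cell cycle or feed back on p53 (Cdkn1a, Ccng1, Btg2, Plk2, Plk3, Mdm2, Ppm1d, Sesn1 and Trp53inp1), together with Trp53, which encodes p53 itself. They were chosen by name for that function, with earlier results of these data known. All 10 were found among the 54532 genes of the deposited count table and were among the 15564 genes tested. Bulk RNA-seq was carried out on lung endothelial cells (ECs) of wild-type (WT) C57BL/6J pups aged 14 days, with 4 libraries from pups kept in room air (normoxia, 21% O2) and 4 from pups kept in hyperoxia (80% O2) from the day of birth. Newborn mice in hyperoxia serve as a model for bronchopulmonary dysplasia, in which alveoli and lung vessels develop poorly. No transgene or deletion was carried by either group. Per the study's methods, ECs were obtained by removing cells that bound CD45-coated beads (leukocytes) and collecting those that bound CD31-coated beads, and nursing dams were rotated between the groups. The number of pups per library was not given in the sources used here, and 5 of the 8 libraries held more than 1000 counts of both the female transcript Xist and the Y-linked genes, so these held RNA of both sexes. Normoxia 2 and hyperoxia 4 had at most 5 counts of Xist, and hyperoxia 3 had 7 counts of the Y-linked genes.

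p53 is a transcription factor that is stabilized when DNA is damaged or the cell is otherwise stressed. It then binds pairs of a decamer motif near its target genes. Among the targets, Cdkn1a encodes p21, an inhibitor of cyclin-dependent kinases (CDKs) that stops cells from entering S phase, while Mdm2 encodes the ubiquitin ligase that marks p53 for degradation and so closes a negative feedback loop. Hyperoxia generates reactive oxygen species, and p21 induction with growth arrest is a known response of lung cells to high oxygen.

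Total counts ranged from 16098086 to 18300730 per library. The endothelial markers were abundant in all libraries, with a summed level of 10 markers between 16734 and 18293 CPM (counts scaled to the normalized library size). Singly, 3 of the 10 rose, 3 fell and 4 did not pass the threshold, where 18.5% of all genes rose and 17.1% fell. Their log2 fold changes ran from -0.79 (Tek) to 0.42 (Emcn). Markers of alveolar epithelium moved with hyperoxia. All 9 markers of alveolar type 2 (AT2) cells and all 6 of alveolar type 1 (AT1) cells were higher, and the summed AT2 level was 242 to 346 CPM in normoxia and 788 to 2386 CPM in hyperoxia, where hyperoxia 3 was lowest. Fibroblast markers (4 of 6 tested higher, none lower) and mural markers (5 of 7 higher, none lower) also rose, from sums of 90.6 to 169 and 23.0 to 47.6 CPM in normoxia to 137 to 353 and 43.3 to 102 CPM in hyperoxia. The markers of these lists with the highest FPKM (counts scaled to gene length and library size), Sftpc, Ager, Npnt and Acta2, had log2 fold changes of 3.40, 2.59, 1.04 and 2.06. Of the leukocyte markers 1 of 6 changed (Cd68, log2 fold change -0.67), the 3 erythroid markers fell (Hbb-bs, -0.65), neither tested airway marker passed the threshold (Scgb1a1, 0.551 and 1.09 CPM), and no marker in any list was at 0 in all libraries. In such bulk samples, fewer cells of a type and less RNA per cell cannot be told apart.

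The p53 decamer is read as purines, then C, then A or T, then G, then pyrimidines, and it is the same motif on either strand. It was searched without mismatch in RefSeq promoter windows of build GRCm38.p6, each from 250 bases before to 50 bases after an annotated transcription start. Windows were found for 9 of the 10 genes (11 windows), Trp53inp1 being without one, and 6 windows, 1 each of Cdkn1a, Ccng1, Mdm2, Ppm1d, Sesn1 and Trp53, held the decamer. Of all 32851 windows 8.36% did. The 3 genes with a window but no match were Btg2, Plk2 and Plk3. Sequence outside the windows was not searched, so any of these genes may hold further decamers elsewhere. A pair of decamers at most 13 bases apart with at most 1 mismatch was found in 0.627% of all windows, and among these genes in Cdkn1a and Ccng1. The sequences are printed to show the motif in the 3 genes that hold it and rose, and in Sesn1, which fell most. Ppm1d, which fell, and Trp53, which did not pass the threshold, hold it as well. Capitals mark the decamers, and positions are counted from the annotated start.
Cdkn1a, chr17:29090882-29090971, plus strand: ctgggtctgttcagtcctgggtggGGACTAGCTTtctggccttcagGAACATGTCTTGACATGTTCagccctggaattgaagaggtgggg
Ccng1, chr11:40755438-40755505, minus strand: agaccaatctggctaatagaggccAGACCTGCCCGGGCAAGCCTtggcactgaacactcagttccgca
Mdm2, chr10:117710911-117710968, minus strand: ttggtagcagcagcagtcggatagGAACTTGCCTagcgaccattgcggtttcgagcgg
Sesn1, chr10:41887242-41887299, plus strand: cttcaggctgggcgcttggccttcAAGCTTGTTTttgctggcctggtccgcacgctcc

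In Cdkn1a the pair without mismatch ran from -73 to -42 with 12 bases between its decamers. Its second decamer also formed an adjoining pair with 1 mismatch, from -51 to -32. These positions refer to the upstream start of the gene, which lies 2790 bases before its other annotated start, and the window at that other start held no decamer. In Ccng1 the pair ran from -195 to -176 without a gap and with 1 mismatch. The single decamer of Mdm2 lay at -186 to -177 and that of Sesn1 at -173 to -164 of its downstream window. These matches describe the sequence, and binding of p53 was not measured here.

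The comparison asked how the arrest and feedback genes differed between ECs of hyperoxic and normoxic lungs. Of the 10 genes, 6 rose (Cdkn1a, Ccng1, Trp53inp1, Btg2, Mdm2 and Plk3), 2 fell (Sesn1 and Ppm1d) and 2 did not pass the threshold (Plk2 and Trp53), at a Benjamini-Hochberg adjusted p under 0.05 in edgeR's quasi-likelihood test. Over all genes tested 18.5% rose and 17.1% fell by the same rule, 35.6% in all. A log2 fold change of at least 1 was reached by 3 of the 10 genes, against 5.62% of all genes, and a fall of that size by 0 of the 10 genes, against 1.36%. In 8 of the 10 genes the values of the groups did not overlap, which was so for 35.4% of all genes (17.8% with hyperoxia higher and 17.6% with it lower). The median log2 fold change of the 10 genes was 0.60, and that of all genes was -0.0040.

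**Figure D1:**
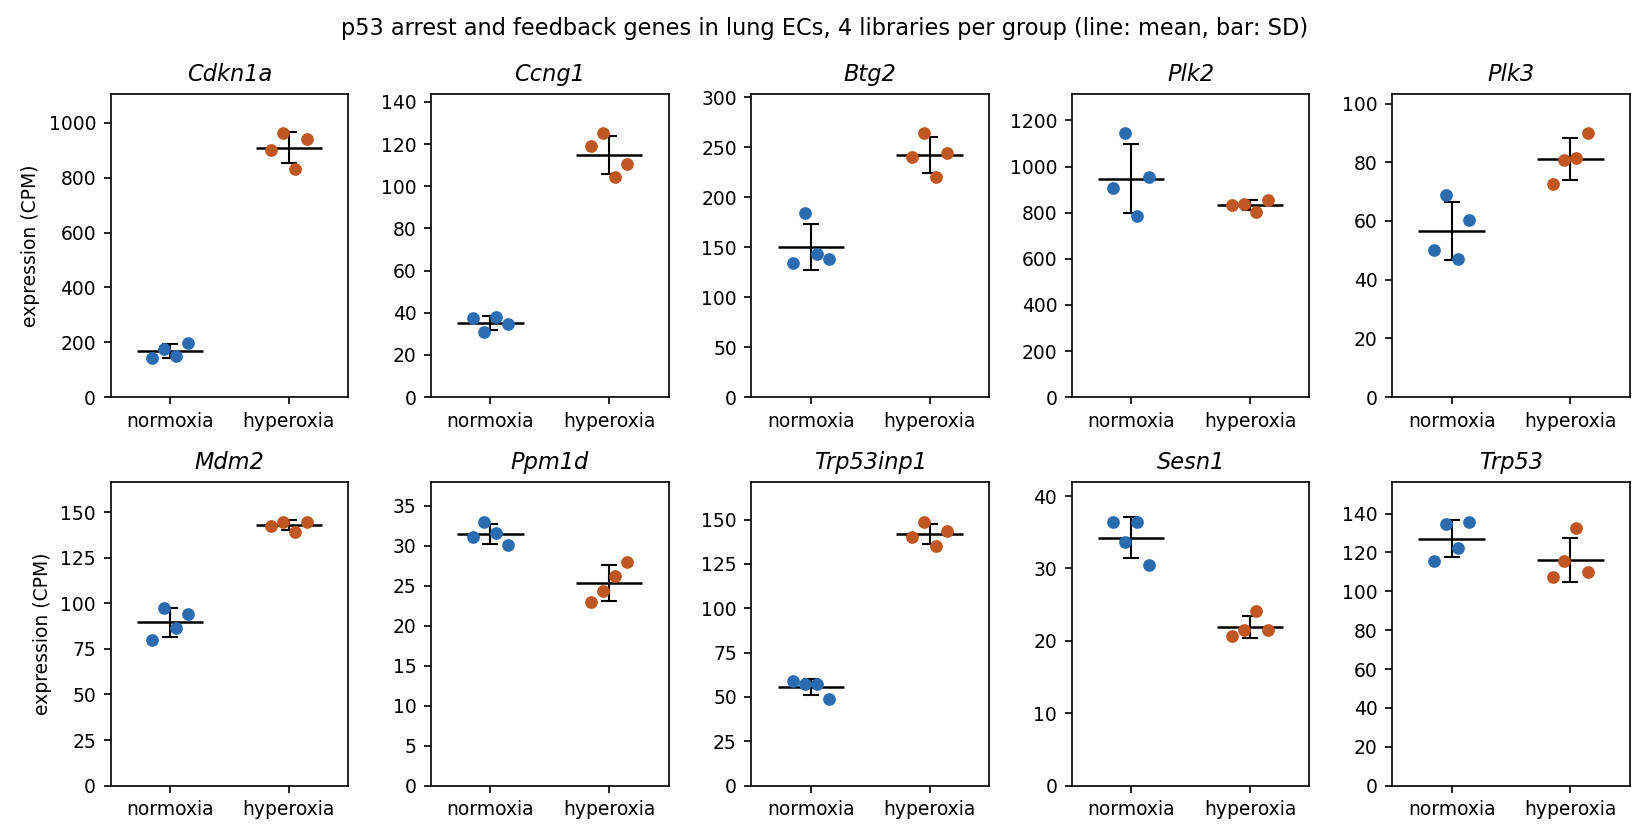
Expression in CPM (vertical axes, from 0) of the 10 genes in each library, with normoxia in blue and hyperoxia in orange; lines are means and bars are SD over 4 libraries. Cdkn1a stands at 144 to 199 CPM in normoxia and 833 to 963 CPM in hyperoxia, while the groups overlap in Plk2 and Trp53.

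Among the genes that arrest the cycle, Cdkn1a (ENSMUSG00000023067, chromosome 17, 29090976 to 29100727, GRCm38) rose most. It was at 144, 177, 151 and 199 CPM in normoxia 1 to 4 and at 900.3, 963, 833 and 941 CPM in hyperoxia 1 to 4. The lowest hyperoxia library thus lay far above the highest normoxia library. The means were 168 ± 25.2 and 909 ± 57.1 CPM (SD, n = 4 each). The fitted change was 2.44 on the log2 scale (95% confidence interval 2.22 to 2.66, SE 0.0998, edgeR adjusted p 8.44e-08). By p-value Cdkn1a ranked 21 and by size of rise 184 among the 15564 genes. Cdkn1a exons overlap an antisense gene, AC167363.2, over 7.68% of their bases, and that gene had 38 to 92 counts per library against at least 2344 for Cdkn1a.

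Ccng1 (chromosome 11, 40748552 to 40755311) encodes cyclin G1, an atypical cyclin that recruits the phosphatase PP2A to MDM2. It was at 37.5, 30.8, 37.9 and 34.9 CPM in normoxia and at 119, 125, 105 and 110.4 CPM in hyperoxia. The groups were again far apart, and the log2 fold change was 1.70 (SE 0.0782, adjusted p 1.79e-07). Btg2 (chromosome 1, 134075170 to 134079120), an antiproliferative cofactor of mRNA deadenylation, was at 134, 184, 143 and 138 CPM in normoxia and at 239.9, 264, 221 and 244 CPM in hyperoxia. Normoxia 2 stood above the other normoxia libraries, but below all 4 hyperoxia libraries. Its log2 fold change was 0.69 (SE 0.0967, adjusted p 0.0003).

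The polo-like kinases Plk2 and Plk3 respond to mitogens and stress, and both are p53 targets. Plk3 (chromosome 4, 117128655 to 117133963) was at 49.96, 68.9, 47.2 and 60.4 CPM in normoxia and at 72.5, 80.6, 81.5 and 89.9 CPM in hyperoxia. The gap between the groups was narrow, between normoxia 2 and hyperoxia 1, and the log2 fold change was 0.52 (SE 0.113, adjusted p 0.00454). The gene Tctex1d4 on the other strand covers 3.32% of the Plk3 exon bases, with 7 to 58 counts. Plk2 (chromosome 13, 110395046 to 110400844), with the most counts of the 10 genes in normoxia, was at 905, 1145, 787 and 954 CPM in normoxia and at 835, 839, 804 and 856 CPM in hyperoxia. Its normoxia libraries spread on both sides of the hyperoxia libraries, and the log2 fold change of -0.19 (95% confidence interval -0.39 to 0.02) had an adjusted p of 0.149. Without normoxia 3, the lowest of its group, Plk2 was lower with an adjusted p of 0.0221 (log2 fold change -0.27). Of the 10 genes, Btg2, Plk2, Plk3, Mdm2 and Ppm1d had their highest normoxia value in normoxia 2.

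Of the genes that feed back on p53, Mdm2 (chromosome 10, 117688875 to 117710758) was at 79.8, 97.6, 86.7 and 94.4 CPM in normoxia and at 143, 145, 139 and 145 CPM in hyperoxia. The 4 hyperoxia libraries lay close together and above normoxia, and the difference was 0.67 on the log2 scale (SE 0.0613, adjusted p 1.68e-05). Ppm1d (chromosome 11, 85311244 to 85347066) encodes WIP1, a phosphatase that removes activating phosphates from p53 and from the kinases ATM and CHK2. It was at 31.1, 33.0, 31.6 and 30.1 CPM in normoxia and at 22.9, 24.3, 26.2 and 27.96 CPM in hyperoxia. Every hyperoxia library thus lay below normoxia, although Ppm1d is itself a known p53 target. The log2 fold change was -0.31 (SE 0.0710, adjusted p 0.00596).

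Trp53inp1 (chromosome 4, 11156431 to 11174379) encodes a nuclear protein that favours p53 phosphorylation and takes part in autophagy. It was at 58.9, 57.1, 57.1 and 49.0 CPM in normoxia and at 139.9, 149, 135 and 144 CPM in hyperoxia. It had the smallest change of the 3 genes past a log2 fold change of 1, at 1.35 (SE 0.0623, adjusted p 1.79e-07). Sesn1 (chromosome 10, 41809935 to 41908424) encodes sestrin 1, which restrains the growth kinase complex mTORC1 in response to stress and low leucine. It fell most of the 10 genes, from 36.4, 33.7, 36.5 and 30.4 CPM in normoxia to 20.7, 21.5, 24.2 and 21.5 CPM in hyperoxia. The groups did not overlap, and the log2 fold change was -0.64 (SE 0.0772, adjusted p 0.000114).

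Trp53 RNA (chromosome 11, 69580359 to 69591873) was at 116, 134, 122 and 136 CPM in normoxia and at 108, 115, 133 and 109.8 CPM in hyperoxia. The groups overlapped, since hyperoxia 3 lay within the normoxia range. The log2 fold change was -0.13 (95% confidence interval -0.29 to 0.04, adjusted p 0.213), an interval that leaves out a rise in RNA of more than 0.04 on the log2 scale in this fit. Without hyperoxia 3 the log2 fold change was -0.20 with an adjusted p of 0.0402, and Trp53 was then past the threshold as lower. The level of p53 protein, which is mainly set by degradation, was not measured.

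Levels can be compared between genes on the FPKM scale, which divides by gene length. In normoxia Plk2 led the 10 genes at 209 ± 32.1 FPKM, followed by Btg2 at 54.1 ± 8.08 and Cdkn1a at 46.8 ± 6.97 FPKM (SD, n = 4 each), whose ranges overlapped each other. In hyperoxia Cdkn1a led at 255 ± 15.9 FPKM, above Plk2 at 185 ± 4.53 FPKM, without overlap between the libraries of the pair. Ccng1 moved from place 7 (9.96 FPKM) to place 4 (32.5 FPKM), where its range overlapped that of Plk3 (31.9 FPKM), which in turn overlapped Trp53 (28.6 FPKM). Trp53inp1 and Sesn1 shared the lowest level in normoxia (8.51 and 8.53 FPKM, overlapping), and in hyperoxia they stood apart at 21.8 and 5.48 FPKM.

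**Figure D2:**
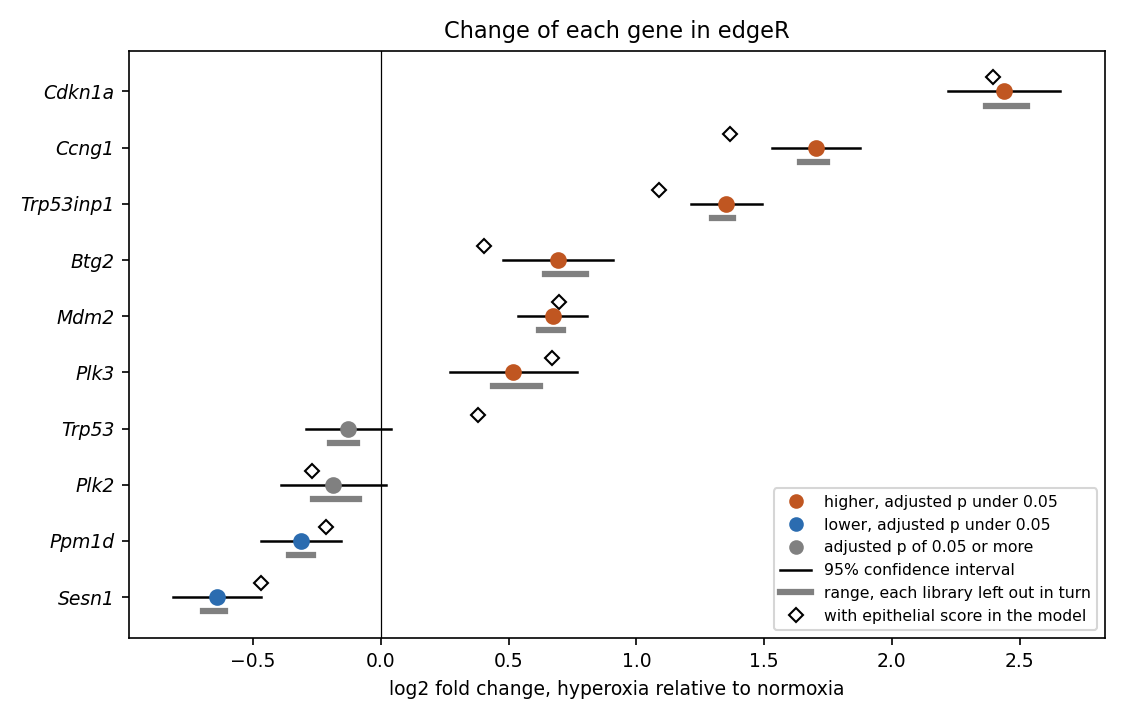
Log2 fold change of each gene (horizontal axis, hyperoxia relative to normoxia) with its 95% confidence interval in black, the range over fits that leave out 1 library in grey, and the value with the epithelial marker score in the model as an open diamond. Cdkn1a, Ccng1 and Trp53inp1 lie above 1 in every fit shown, while Trp53 lies below 0 without the score and at 0.38 with it.

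The rise of epithelial markers in the hyperoxia libraries was set beside these values. The summed AT2 level was 788 CPM in hyperoxia 3 and 2093 to 2386 CPM in hyperoxia 1, 2 and 4. Cdkn1a was at 833 CPM there and at 900.3 to 963 CPM in the remaining libraries of the group, and Mdm2 at 139 and at 143 to 145 CPM. Among the 6 genes that rose, hyperoxia 3 had the lowest hyperoxia value in all but Plk3. How often this was so among all genes that rose was not determined. Hyperoxia 3 was also the library with 7 counts of the Y-linked genes. When the mean log2 CPM of the 15 AT2 and AT1 markers was added to the model, Cdkn1a (2.40, SE 0.272, adjusted p 0.0031), Ccng1 (1.37, SE 0.192, adjusted p 0.00895) and Trp53inp1 (1.09, SE 0.157, adjusted p 0.00969) stayed past the threshold. Mdm2 (0.70, SE 0.186, adjusted p 0.121), Btg2 (0.40, SE 0.274, adjusted p 0.616) and Plk3 (0.67, SE 0.333, adjusted p 0.471) were then not past it. Nor were Sesn1 (-0.47, SE 0.228, adjusted p 0.464) and Ppm1d (-0.21, SE 0.217, adjusted p 0.757), and Trp53 changed sign to 0.38 (adjusted p 0.333). The SEs of all 10 genes were larger than without the score, for Mdm2 0.186 against 0.0613 and for Plk3 0.333 against 0.113. This score and the group are largely the same contrast (r = 0.940 over the 8 libraries), and that fit called 215 genes in all. The part of mesenchymal cells in these values was not tested.

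Within a library, the ratio of a gene to a relative does not depend on the scaling of the library. The pairs were Cdkn1a with Cdkn1b (the CDK inhibitor p27), Mdm2 with Mdm4 (its partner in restraining p53), Ccng1 with Ccng2, Btg2 with Btg1, Plk3 with Plk2, Sesn1 with Sesn3, Trp53inp1 with Trp53inp2, and Ppm1d with Ppm1a. In all 8 pairs the FPKM ratios of the groups did not overlap. Of all genes taken singly 35.4% did not overlap in CPM, and the share over other gene pairs was not determined. Each gave an exact two-sided permutation p of 0.0286 (70 assignments, n = 4 each), which is the smallest that this design allows and stayed 0.0286 after adjustment over the 8 pairs. The first gene of every pair was already called and without overlap on its own, and the pairs were chosen with earlier results known. These p-values are therefore no independent test of the changes. The Cdkn1a to Cdkn1b ratio was 1.41 to 1.88 in normoxia and 10.9 to 12.3 in hyperoxia, a difference of 2.86 in mean log2 ratio. Cdkn1b itself fell by 0.41 on the log2 scale (edgeR adjusted p 7.06e-05), with means of 134 (normoxia) and 100.4 CPM (hyperoxia).

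The Mdm2 to Mdm4 ratio went from 1.02 to 1.24 in normoxia to between 2.75 and 3.19 in hyperoxia. Mdm4, which binds the transactivation domain of p53, fell while Mdm2 rose, from 228, 229.5, 209 and 223 CPM to 132, 135, 148 and 132 CPM (log2 fold change -0.71, SE 0.0516, adjusted p 3.6e-06). The Ccng1 to Ccng2 ratio turned over, from 0.409 to 0.575 in normoxia to between 2.62 and 3.14 in hyperoxia. Ccng2, a cyclin induced by FOXO factors in quiescent cells, fell by 0.82 on the log2 scale (adjusted p 3.23e-06), with means of 106 (normoxia) and 60.1 CPM (hyperoxia).

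The Btg2 to Btg1 ratio was 1.45 to 1.80 in normoxia and 2.54 to 3.30 in hyperoxia, and Btg1 itself had an adjusted p of 0.0534 (log2 fold change -0.15). For Plk3 and Plk2 the ratio was 0.0979 to 0.112 in normoxia and 0.154 to 0.186 in hyperoxia, so Plk3 gained on Plk2 while remaining far below it. Trp53inp2 was higher as well, at 190.3 CPM after 157 CPM in normoxia (0.27 on the log2 scale, adjusted p 0.00275), and the ratio of Trp53inp1 to it went from 0.244 to 0.319 up to 0.596 to 0.616. The Sesn1 to Sesn3 ratio fell from between 4.60 and 5.98 to between 2.70 and 3.32, with Sesn3 at an adjusted p of 0.0719 (log2 fold change 0.19). The Ppm1d to Ppm1a ratio fell from between 0.719 and 0.775 to between 0.554 and 0.653. Ppm1a stood at 172 CPM in both groups (95% confidence interval of the log2 fold change -0.11 to 0.10).

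**Figure D3:**
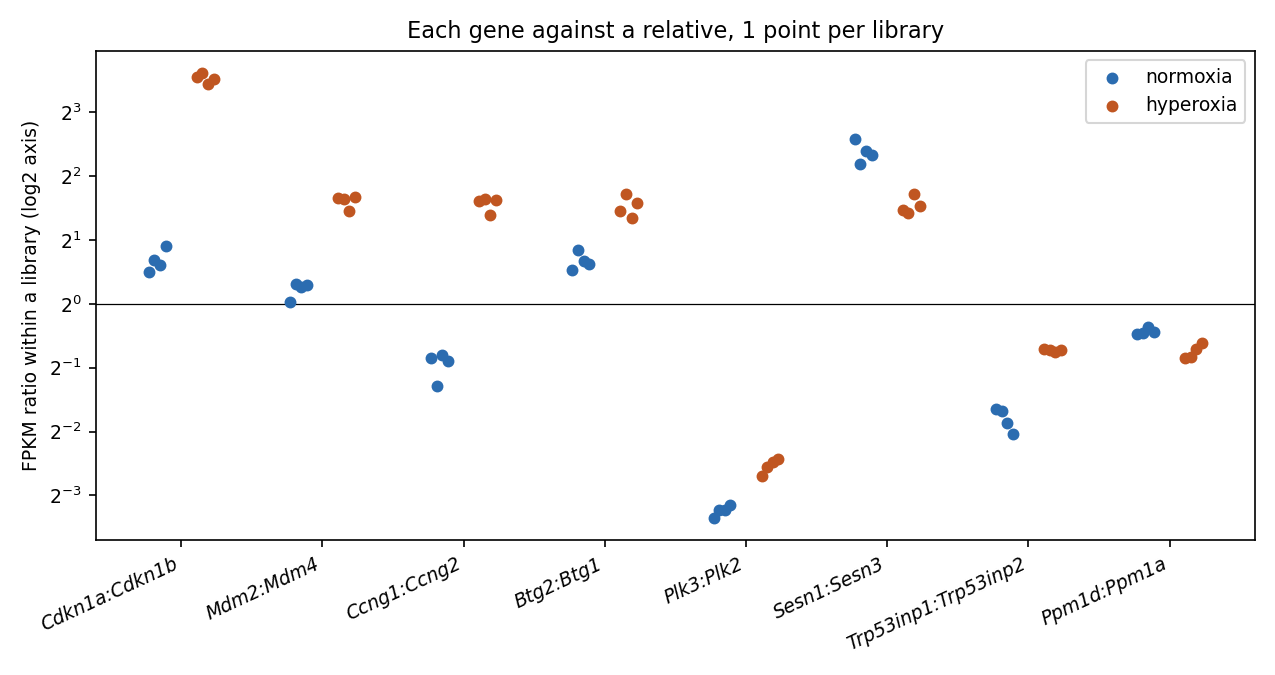
FPKM ratio of each gene to a relative (vertical axis, log2 scale) in each library, with normoxia in blue and hyperoxia in orange. The groups do not overlap in any of the 8 pairs; the ratio is higher in hyperoxia in 6 pairs and lower for Sesn1:Sesn3 and Ppm1d:Ppm1a.

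Of 17 relatives of these genes 15 were tested, 2 rose and 6 fell, where 18.5% of all genes rose and 17.1% fell (median log2 fold change of the relatives -0.20), while Trp63 and Trp73, which encode the p53 relatives p63 and p73, had at most 2 and 1 counts in any library. The sestrin genes moved apart. Sesn2, which is induced by p53 and by the integrated stress response, rose by 1.48 on the log2 scale (adjusted p 1.27e-06), with means of 19.1 (normoxia) and 53.3 CPM (hyperoxia), whereas Sesn1 fell. The antiproliferative gene Tob1 fell by 0.25 on the log2 scale (adjusted p 0.0245), with means of 87.7 (normoxia) and 73.6 CPM (hyperoxia).

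The wider p53 pathway was described by lists written from general knowledge, some of which share genes. Earlier results of these data were known when the lists were chosen, so their counts and medians are a description only. Of 14 p53 targets of cell death, 11 rose and none fell, where 18.5% of all genes rose and 17.1% fell. Their median log2 fold change was 0.89. Bax, which permeabilizes mitochondria, went from 54.1 to 146 CPM (log2 fold change 1.43), and Zmat3, an RNA-binding p53 effector, from 22.7 to 142 CPM (2.64). Aen, an apoptotic nuclease, rose from 18.5 to 72.5 CPM (1.97) and the receptor gene Eda2r from 1.92 to 78.3 CPM (5.33), while Trp53i11 stood at 167 and 156 CPM (adjusted p 0.409). The adjusted p-values of the 4 genes that rose were between 1.47e-08 and 6.98e-08 in edgeR.

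Of 16 tested p53 targets of repair and metabolism, 9 rose and 4 fell (median 0.74), where 18.5% of all genes rose and 17.1% fell. Phlda3, a repressor of Akt at the membrane, rose from 54.7 to 245 CPM (2.16), Psrc1 from 4.37 to 20.7 CPM (2.24), Zfp365 from 0.466 to 20.4 CPM (5.41) and Ei24 from 89.0 to 151 CPM (0.76). The 4 that fell were Ddb2, Gadd45a, Rrm2b and Xpc, with log2 fold changes of -0.50, -0.46, -0.44 and -0.35 (adjusted p 0.0294, 0.0263, 0.00121 and 0.000462). These 4 were named after their values were seen. Ddb2 and Xpc act in the recognition of damaged DNA and Rrm2b in the supply of deoxynucleotides. Other repair genes of this list, also named after their values were seen, rose, among them the endonuclease gene Ercc5 (0.71, adjusted p 1.2e-05) and the polymerase gene Polk (0.96, adjusted p 5.3e-06).

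**Figure D4:**
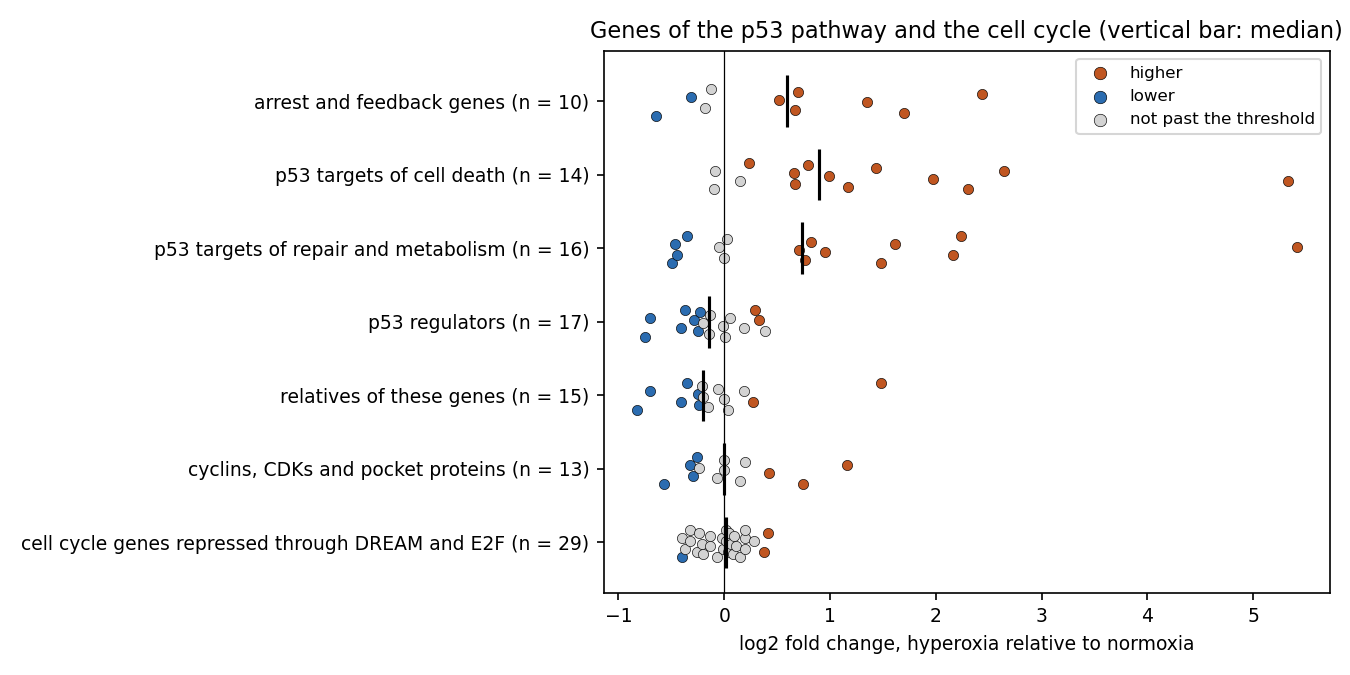
Log2 fold change (horizontal axis, hyperoxia relative to normoxia) of each tested gene in 7 lists, coloured by direction where the edgeR adjusted p was under 0.05; vertical bars are list medians. The lists of p53 targets have medians of 0.60, 0.89 and 0.74, and those of the other 4 lists lie between -0.20 and 0.02.

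Of 17 tested genes that regulate p53, 2 rose and 7 fell, where 18.5% of all genes rose and 17.1% fell. The 2 that rose were Rchy1 and Kat5, which encode an E3 ligase and an acetyltransferase acting on p53, named after their values were seen. The median log2 fold change of the 17 genes was -0.15. The deacetylase gene Sirt1 went from 71.7 to 42.7 CPM (-0.75, adjusted p 9.15e-06), Prkdc, the catalytic subunit of DNA-dependent protein kinase, from 36.4 to 27.4 CPM (-0.41, adjusted p 0.00189), and the p53 kinase gene Hipk2 from 179 to 139 CPM (-0.37, adjusted p 0.0205). The deubiquitinase gene Usp7 stood at 198 and 181 CPM (adjusted p 0.0654).

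Among the cyclins, CDKs and pocket proteins that drive or restrain entry into S phase, 3 of 13 rose and 4 fell, where 18.5% of all genes rose and 17.1% fell. The 3 that rose were the D cyclins, named here after their values were seen. Ccnd1 went from 264 to 590.0 CPM (1.16 on the log2 scale, adjusted p 1.02e-06), Ccnd2 from 220.0 to 368 CPM (0.74, adjusted p 6.19e-06) and Ccnd3 from 189 to 254 CPM (0.43, adjusted p 0.000159), while Cdk6, a kinase partner of theirs, fell from 80.3 to 54.0 CPM (-0.57, adjusted p 0.00212). Their other partner Cdk4, also named after its values were seen, was at 128 and 141 CPM (0.15, adjusted p 0.113). Pcna, the replication clamp that p21 binds, was at 134 CPM in both groups. Of 29 cell cycle genes that are repressed through the DREAM complex and E2F factors when p21 is active, 26 did not pass the threshold, and the median log2 fold change was 0.02. Among all 15564 genes tested, 10029 did not pass the threshold and 35.6% did. Cdc20, a mitotic activator of protein degradation, fell from 24.7 to 18.6 CPM (-0.40, adjusted p 0.00614). E2f1 (0.41, adjusted p 0.0331) and Mcm5 (0.38, adjusted p 0.0377) were higher, and the helicase genes Mcm3 (85.9 and 88.8 CPM) and Mcm6 (78.4 and 71.6 CPM) did not pass it. The summed level of these 29 genes was 692 to 935 CPM in normoxia and 775 to 974 CPM in hyperoxia, with overlapping groups.

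The genes whose log2 CPM followed Cdkn1a most closely over the 8 libraries were Ces2e, Adgrl2, Smpd1, Fat1 and Eng, with Pearson's r between 0.997 and 0.999. They were sought among the 9076 protein-coding genes whose mean reached 10 CPM. These values are given as a description, since the libraries form separate groups and any gene that differs between them correlates. The log2 fold changes of the 5 genes were 2.06, 0.82, 0.55, 1.93 and 0.43, all below the 2.44 of Cdkn1a.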

How the data were processed

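The authors deposited whole-number gene counts and FPKM values (fragments scaled to gene length and library total) for 8 libraries. The submitters' processing notes name HISAT2 2.0.5, featureCounts 1.5.0-p3 and build mm10, and the use of strand was not given in the sources used here. The labels name an RNeasy kit and the study's methods TRIzol for the RNA. Coordinates of the 10 genes equalled those of GENCODE M21 (GRCm38).

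Counts were tested with edgeR 4.0.16 in R 4.3.3 (quasi-likelihood test, TMM, filterByExpr, group as the only term), which kept 15564 genes. Genes were called at a Benjamini-Hochberg adjusted p under 0.05 over these genes, and a log2 fold change of at least 1 was counted beside it. SE followed from the F statistic, and CPM used TMM-normalized totals. FPKM ratios between genes were compared by exact permutation tests. The scripts were tested on simulated data.

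The genes, the lists, the pairs and the alternatives were chosen with earlier results of these data known. From each other list the 2 genes with the highest FPKM were named, with the 3 called genes that changed most among those averaging 5 CPM or more, from each marker list the gene with the highest FPKM, and for Cdkn1a the 5 most correlated genes. Alternatives were other normalizations, filters, DESeq2 1.42.0, limma 3.58.1 (voom, log2 FPKM), a replicate block, an epithelial covariate and leaving out each library. The labels do not say whether libraries came from separate animals, so p-values measure only the spread between these samples.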

Additional observations from a re-analysis of the deposited data

Results flagged for a closer look

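A library is listed when the gap between it and its nearest neighbour took up more of its group's range than Dixon's 95% critical value. This was so in 4 of 36 groups, where chance alone gives about 1 in 20, or 1.8. Normoxia 2 had 184 CPM of Btg2, against 134 to 143 CPM in the other normoxia libraries. The Mdm2 to Mdm4 FPKM ratio was 1.02 in normoxia 1, against 1.21 to 1.24 in the other normoxia libraries, and 2.75 in hyperoxia 3, against 3.13 to 3.19 in the other hyperoxia libraries. The Ccng1 to Ccng2 FPKM ratio was 2.62 in hyperoxia 3, against 3.06 to 3.14 in the others. Hyperoxia 3 is also the hyperoxia library with the lowest epithelial marker level. By sex, hyperoxia 3 had 7 counts of the Y-linked genes and normoxia 2 had 3 counts of Xist, while normoxia 1 held RNA of both sexes. The cause of these values was not tested.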

How the results depend on the processing

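Over 19 alternatives the direction of 9 of the 10 genes held. With the epithelial score in the model, 3 genes were higher and 0 lower, 215 genes were called in all (82.3% of them higher, against 51.9% without the score) and 160 of these had a log2 fold change of at least 1. With that score Trp53 changed sign, to 0.38. In limma on log2 FPKM plus 1, 330 genes reached the larger fold, against 846 with 0.1 added in place of 1 and 1087 in edgeR on the counts. Leaving out each library gave 4526 to 5445 genes called, 1011 to 1287 past the larger fold, 6 genes of the set higher each time and 2 to 3 lower, the third being Plk2 without normoxia 3 or Trp53 without hyperoxia 3. The 8 ratios kept their direction, and the Ppm1d to Ppm1a difference ranged from -0.36 to -0.28, with an adjusted p of 0.0571 without normoxia 3. With the replicate number as a block, 6 genes were higher, 2 were lower and 4792 genes were called in all. Same-numbered libraries did not deviate together (r from -0.140 to 0.119), and r of differently numbered libraries ran from -0.247 to 0.279. Values this scattered cannot settle whether the numbers pair the libraries.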
